A study of Gallus gallus with 14 samples.

Results

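STAR, CYP17A1, HSD3B1 and CYP19A1 are 4 genes of steroid hormone synthesis, and their RNA levels were followed through chicken blastodermal cells and embryonic gonads. The members were chosen by name, as the RefSeq mRNA of each gene. All 4 were found among the 42501 transcripts of the deposited expression table, of which 6388 carry a RefSeq mRNA identifier. Strand-specific RNA-seq had been done in 6 libraries of JA57 chickens, 2 from each of 3 groups. The libraries are blastodermal cells from fresh fertilized eggs (BC, libraries T5 and T6), male gonads of embryonic day 11 (E11G, T1 and T2) and male gonads of embryonic day 14 (E14G, T3 and T4). Small RNA libraries of the same series, used here only for piRNA clusters, came from other chickens. They are 2 each from BC of Leghorn, E11G and E14G, with 1 library of each stage from Cobb 500 and 1 from Leghorn, and cultured male primordial germ cells of embryonic day 7 from Arbor Acres broilers (E7PGC). No group carried a genetic change or a drug treatment. The study's methods describe the gonad RNA as coming from pooled left gonads, so each value is an average over embryos and over all cell types of the organ. Levels are given as FPKM, the fragments of a transcript per length of the transcript and per depth of the library, which sets transcripts of unequal length on one scale. Nothing in the sources used here says whether the 2 libraries of a group came from separate pools, so p-values measure the spread between libraries, which may be technical. In whole gonads, fewer cells of a type and less RNA per cell cannot be told apart.

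Steroid hormones are built from cholesterol in a short chain of steps. STAR brings cholesterol to the inner membrane of the mitochondrion, where CYP11A1 cuts its side chain to give pregnenolone. HSD3B1 turns pregnenolone and related steroids into their ketone forms, among them progesterone, and CYP17A1 makes the precursors of androgens. CYP19A1, the aromatase, turns androgens into estrogens. In the chicken embryo aromatase is known as an enzyme of the female gonad, where estrogen directs the left gonad towards an ovary, whereas the earlier steps run in both sexes. In birds the female is the sex that carries a W chromosome.

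The libraries were first checked against their labels. Transcripts on the assembled chromosome W with at least 1 FPKM in both BC libraries, 19 in all, served as the check, a set chosen after the values were seen. In each of T2, T3 and T4, 18 of the 19 were under 0.1 FPKM. In T1, 13 of the 19 reached at least 0.5 FPKM and only 1 was under 0.1 FPKM. With each transcript taken as a percent of its own BC mean, the median percent in T1 was 27.9%. The median level was 1.68 FPKM in T1, 0 in T2, T3 and T4, 3.04 in T5 and 3.06 in T6. Their summed level was 44.7 FPKM in T1, 5.66 in T2, 5.49 in T3, 6.06 in T4, 162 in T5 and 169 in T6. HNRNPKL, a W-linked gene of an RNA-binding protein, stood at 9.02 FPKM in T1, 0.0254 in T2, 0 in T3 and 0.0174 in T4, against 40.7 and 38.5 in BC. T1 therefore goes against its label of male gonads, since it holds RNA of the female chromosome that the other 3 gonad libraries nearly lack. T1 and T2 are read separately below, as was set when the members were chosen. Each comparison of a member with E11G is given with both and with each of them. For other genes the comparison uses both. The value with T1 left out is added for a named difference where it changes a call or moves the value by over 1.5 times. Counts over a list come from the fit with both unless stated, and some of them change with T1 left out. The male markers were nevertheless at similar levels in T1 and T2. AMH, a hormone of Sertoli cells, was at 3797 FPKM in T1, 4696 in T2, 3056 in T3 and 2906 in T4. DMRT1, the Z-linked testis determinant, was at 56.3, 50.8, 68.4 and 64.1 FPKM in the same order, and SOX9, a Sertoli cell transcription factor, at 15.9, 13.7, 19.0 and 25.5 FPKM.

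**Figure D1:**
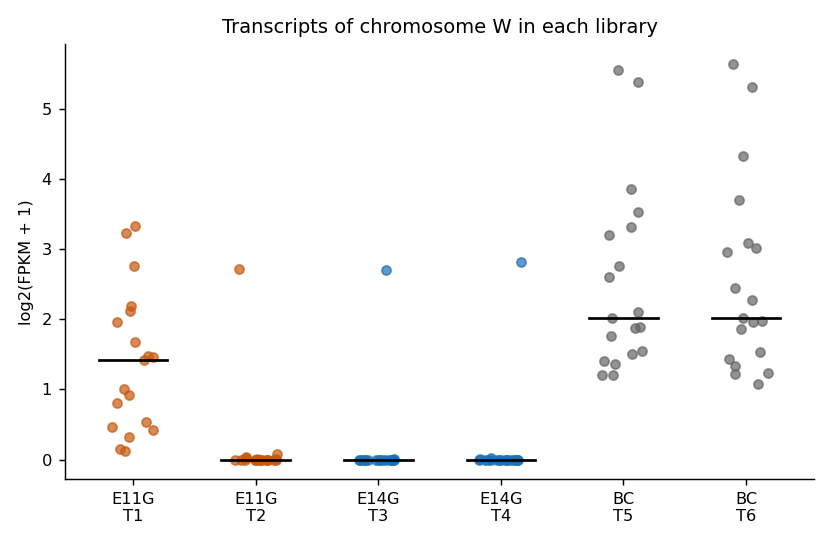
Level of each of the 19 transcripts of chromosome W in the 6 RNA-seq libraries, as log2(FPKM + 1), with 1 point for each transcript and a line at the median of the library. In T2, T3 and T4, 18 of the 19 are under 0.1 FPKM, whereas 13 of them reach 0.5 FPKM or more in T1.

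STAR (NM_204686, galGal5 chromosome 22, positions 2281514 to 2291806) was a gonad transcript with 2 unlike E11G libraries. It was at 26.1 FPKM in T1 and 8.87 in T2, at 18.2 in T3 and 16.7 in T4, and at 0.663 in T5 and 0.810 in T6. All 4 gonad libraries were above both BC libraries, and both E14G libraries lay between the E11G libraries, so the gonad stages overlapped. The level in T1 was 2.94 times that in T2, while the E14G libraries differed by 1.09 times and averaged 17.5 ± 1.05 FPKM (SD, n = 2). The table gives the same span for STAR and for ASH2L, a subunit of histone methyltransferase complexes, which stayed between 15.2 and 18.2 FPKM in the gonads and was at 46.2 and 51.6 in BC. The levels of the transcripts thus did not run in parallel, although the table's positions do not separate their loci.

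HSD3B1 (NM_205118, chromosome 1, 78465926 to 78476335) was the steadiest of the 4 in the gonads. Its level was 64.4 FPKM in T1, 61.8 in T2, 75.2 in T3 and 71.9 in T4, against 0.422 in T5 and 0.314 in T6. Both E14G libraries were above both E11G libraries without overlap, and the BC libraries were far below. T1 and T2 differed by 1.04 times, and the mean was 63.1 ± 1.84 FPKM (SD, n = 2) in E11G and 73.5 ± 2.31 FPKM (SD, n = 2) in E14G, a ratio of 1.17. Of the 22368 transcripts tested, 28.2% had both E14G libraries above both E11G libraries and 25.0% had both below.

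CYP17A1 (NM_001001901, chromosome 6, 23388032 to 23390510) was the highest of the 4 in every library. It was at 217 FPKM in T1, 109.7 in T2, 228 in T3 and 225 in T4, and at 2.86 in T5 and 3.32 in T6. T2 alone was low among the gonad libraries, with T1 just under both E14G libraries. The level in T1 was 1.98 times that in T2, and the E14G mean of 227 ± 2.29 FPKM (SD, n = 2) was 2.07 times T2 and 1.04 times T1. Among the RefSeq mRNAs of the table, 97.5% were lower than CYP17A1 in T1 and 94.9% in T2.

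CYP19A1 (NM_001001761, chromosome 10, 9208021 to 9221830) was present at a high level in 1 library of 6. It was at 115.9 FPKM in T1, 0.0137 in T2, 0.0165 in T3 and 0.0188 in T4, and was listed at 0 in both BC libraries. T1 stood apart from T2, which carries the same label, and T2, T3 and T4 were within a factor of 1.37 of each other. The fragments behind these levels were not measured. With T2 taken as 1 fragment, the commonest ratios of low values put T3 at about 1 and T4 at about 2. The level in T1 was 8476 times that in T2. With 1 fragment in T2, its 95% exact interval ran from 1521 to 334838, which covers counting error only. On that assumption, the levels in T2, T3 and T4 do not set these 3 libraries apart from the BC libraries at this depth. CYP19A1 exceeded HSD3B1 in T1 by 1.80 times and was the lowest of the 4 in the other libraries.

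**Figure D2:**
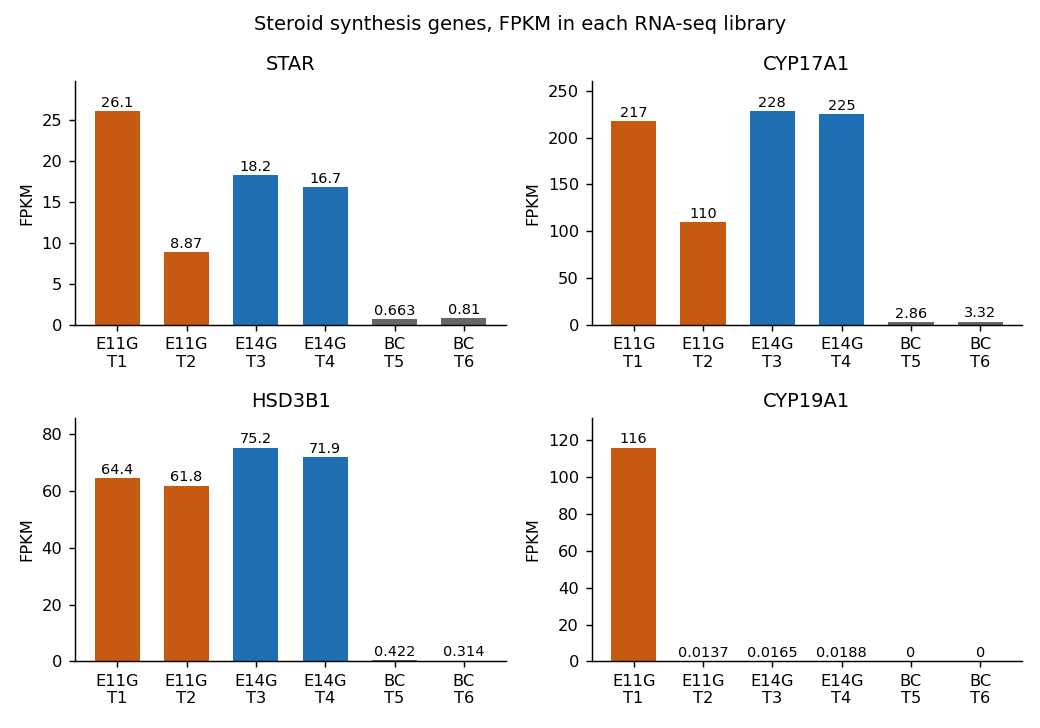
Level of STAR, HSD3B1, CYP17A1 and CYP19A1 in FPKM, with 1 bar for each of the 6 RNA-seq libraries and the value above it. CYP19A1 is at 115.9 FPKM in T1 and at most 0.0188 elsewhere, whereas HSD3B1 stays between 61.8 and 75.2 FPKM in the 4 gonad libraries.

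The ratios between the transcripts of the members also differed among the libraries. The ratio of CYP17A1 to HSD3B1 was 3.37 in T1, 1.77 in T2, 3.04 in T3 and 3.13 in T4, so T2 again stood below the other 3 gonad libraries. In BC the same ratio was 6.78 in T5 and 10.6 in T6, at levels of HSD3B1 under 1 FPKM. The order of levels was CYP17A1, HSD3B1, STAR and CYP19A1 in T2, T3 and T4, while CYP19A1 was in second place in T1. The summed level of the 4 was 424 FPKM in T1, 180.4 in T2, 322 in T3, 314 in T4, 3.94 in T5 and 4.44 in T6. Without CYP19A1 the sum in T1 was 308 FPKM, close to both E14G libraries.

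The first comparison addressed which members distinguish the gonad from the blastoderm. A limma fit on log2(FPKM + 1) used all 6 libraries, and both comparisons with BC share the BC libraries. Between E11G and BC, 3 of the 4 members were higher in E11G and none was lower, beside 78.3% of all transcripts tested that passed in either direction, 38.0% higher and 40.4% lower. On this scale HSD3B1 was higher by 5.55 ± 0.08 (SE, limma adjusted p = 5.2e-06), CYP17A1 by 5.25 ± 0.31 (adjusted p = 6.46e-05) and STAR by 3.24 ± 0.46 (adjusted p = 0.00145). CYP19A1 did not pass, with a difference of 3.44 ± 2.12 (limma adjusted p = 0.19) that is the average of 1 high and 1 near-absent library. Read against T2 alone, that is, with T1 left out, the differences were 5.52 for HSD3B1, 4.76 for CYP17A1 and 2.51 for STAR, and all 3 passed. With T1 as the only E11G library they were 5.58, 5.74 and 3.96. CYP19A1 then differed by 6.87, which restates the level in T1, since T1 is both the only E11G library and the only library in which CYP19A1 reached 1 FPKM.

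Between E14G and BC the same 3 members passed, beside 76.7% of all transcripts tested in either direction, 37.3% higher and 39.4% lower. The difference was 5.80 ± 0.31 for CYP17A1 (SE, limma adjusted p = 5.17e-05), 5.77 ± 0.08 for HSD3B1 (adjusted p = 4.63e-06) and 3.41 ± 0.46 for STAR (adjusted p = 0.00121). CYP19A1 differed by 0.03 ± 2.12 (limma adjusted p = 0.99), a standard error set by the gap between T1 and T2 in the shared fit. In FPKM, the lowest gonad library was above the highest BC library by 147 times for HSD3B1, 33.1 times for CYP17A1 and 10.95 times for STAR. All 4 gonad libraries were above both BC libraries for 40.3% of the transcripts tested, and at least 4-fold above on FPKM + 1 for 5.03%, a class that holds these 3 members. An exact two-sided permutation test of the 4 gonad against the 2 BC libraries gave p = 0.0667 for each of the 3, the smallest p it can give.

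The second comparison addressed the change from E11G to E14G. By limma, none of the 4 members passed in either direction beside 3.84% of all transcripts tested, 1.52% higher and 2.32% lower in E14G. When RefSeq mRNAs alone were tested, the class of the members, 14.3% passed, 8.85% higher and 5.46% lower, and again no member did. At an unadjusted p under 0.05 were 1 of the 4 members and 23.4% of all transcripts tested. The differences on log2(FPKM + 1) were 0.22 ± 0.08 for HSD3B1 (SE, limma adjusted p = 0.18), 0.55 ± 0.31 for CYP17A1 (adjusted p = 0.36), 0.18 ± 0.46 for STAR (adjusted p = 0.86) and -3.42 ± 2.12 for CYP19A1 (adjusted p = 0.40). HSD3B1 was the member with an unadjusted p under 0.05. An exact two-sided permutation test of 2 against 2 libraries cannot give a p under 0.333, and it gave 0.333 for HSD3B1 and CYP17A1 and 1 for STAR and CYP19A1.

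The outcome of the second comparison depended on which E11G library it was read against. With T1 left out, CYP17A1 was higher in E14G by 1.04 ± 0.10 (limma adjusted p = 0.062) and STAR by 0.90 ± 0.12 (adjusted p = 0.083), and neither passed the threshold of 0.05. CYP19A1 could not be fitted there, since no library left reached 1 FPKM. In this fit 0.0407% of the transcripts tested were higher in E14G and 0.199% lower. With T2 left out, STAR turned to a difference of -0.55 ± 0.12 (limma adjusted p = 0.14) and CYP17A1 was at 0.06 ± 0.10 (adjusted p = 0.80), and neither passed, beside 0.235% of all transcripts that were higher and 0.742% that were lower. CYP19A1 then differed by -6.84, which again restates the level in T1. HSD3B1 gave 0.25 without T1 and 0.19 without T2, and passed in neither. Thus the direction for STAR was set by the choice of E11G library. In each of these fits E11G is a lone library that is taken to vary like the others.

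**Figure D3:**
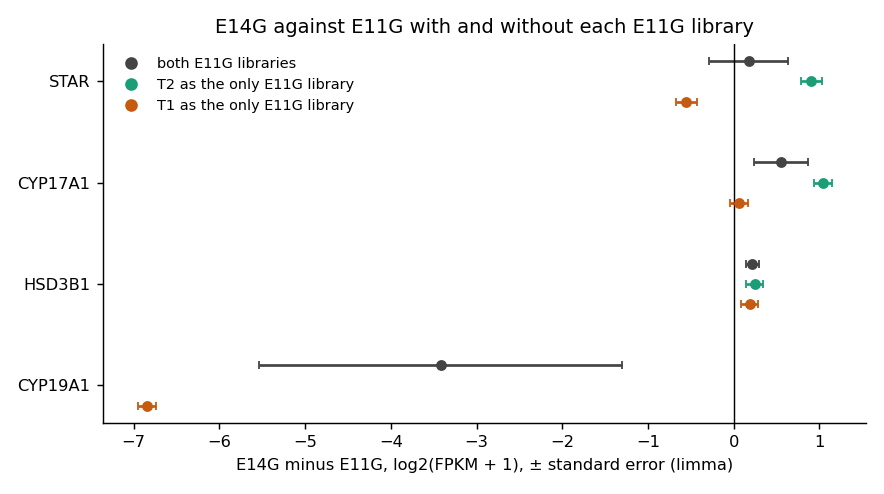
Difference between E14G and E11G in log2(FPKM + 1) with its standard error from limma, for the fit with both E11G libraries and for the fits with T2 or T1 as the only E11G library. The value for STAR runs from 0.90 with T2 to -0.55 with T1, whereas that for HSD3B1 stays between 0.19 and 0.25. CYP19A1 has no value with T2 as the only E11G library.

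Since the E11G libraries have 1 label, their differences carry no test and are set beside those of all transcripts. On FPKM + 1, 0.384% of the transcripts tested were at least 4-fold higher in T1 than in T2 and 0.317% at least 4-fold lower, and CYP19A1 was the member among the former. At least 1.5-fold higher in T1 were 3.29% of the transcripts, among them CYP19A1, STAR and CYP17A1, and 3.02% were at least 1.5-fold lower, with no member among them. The share of transcripts with a difference as large or larger in T1 was 0.0224% for CYP19A1, 0.639% for STAR, 1.43% for CYP17A1 and 41.3% for HSD3B1. STAR and CYP17A1 belonged to the 0.644% of transcripts for which T1, T3 and T4 were each at least 1.5-fold above T2, a class defined after their values were seen. Seen from T1, CYP19A1 belonged to the 0.206% that were at least 4-fold above each of T2, T3 and T4. The members thus fell into separate patterns, with T1 high for CYP19A1, T2 low for STAR and CYP17A1, and neither for HSD3B1. With T1 set aside for its RNA of chromosome W, T2 is the only E11G library. A low T2 then cannot be told apart from a lower level in E11G than in E14G. STAR and CYP17A1 were not alike in T1, where STAR was above both E14G libraries and CYP17A1 just under them. Read from E14G on the same scale, both libraries were at least 1.5-fold above T2 for 2 of the 4 members, STAR and CYP17A1, and for 3.22% of all transcripts tested, and below T2 for no member and for 4.01%. Against T1, both were at least 1.5-fold below for 1 of the 4, CYP19A1, and for 4.41% of all, and above for no member and for 3.08%. The relation of the members to the RNA of chromosome W in T1 was not tested.

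The gene lists below hold RefSeq mRNAs only. When RefSeq mRNAs alone were tested, 34.9% were higher and 50.0% lower in E11G than in BC. In E14G the shares were 35.3% and 48.2%, and from E11G to E14G 8.85% rose and 5.46% fell. Of 28 other genes of steroid synthesis, 10 were found by a RefSeq mRNA and 10 of their transcripts were tested. In E11G, 4 were higher than in BC and 2 lower, beside 38.0% higher and 40.4% lower among all transcripts tested, with a median difference of 0.22 beside -0.03. With T1 left out, HSD17B1 and CYB5A were lower as well, so 4 were higher and 4 lower, beside 35.3% and 38.4% of all transcripts in that fit. In E14G, 5 were higher and 2 lower, beside 37.3% and 39.4%, with a median of 0.20 beside -0.02. CYP11A1, the side-chain cleavage enzyme, was at 136 FPKM in T1, 127 in T2, 145 in T3 and 137 in T4, against 1.95 and 1.64 in BC. Like HSD3B1, it was far above BC in all gonad libraries and differed little between T1 and T2. Its difference from BC was 5.57 ± 0.08 in E11G and 5.67 ± 0.08 in E14G, and both passed. HSD17B4, a peroxisomal enzyme that also inactivates estradiol, was higher than in BC by 2.43 in E11G and 2.71 in E14G. FDX1, the ferredoxin that passes electrons to CYP11A1, was lower than in BC, with differences of -0.94 and -0.78 that both passed.

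From E11G to E14G, 1 of the 10 rose and none fell, beside 1.52% and 2.32% of all transcripts tested, and with T1 left out none passed. AKR1D1, a 5-beta-reductase that inactivates steroids, was at 117 FPKM in T1, 108 in T2, 188 in T3 and 189 in T4, without overlap of the stages. It rose by 0.74 ± 0.07 (SE, limma adjusted p = 0.0192), and by 0.80 with T1 left out (adjusted p = 0.062). HSD17B1, which reduces estrone to estradiol and so acts beside aromatase, was at 18 FPKM in T1, 1.68 in T2, 0.606 in T3 and 0.797 in T4, and at 4.63 and 5.46 in BC. T1 was again the high library, 10.7 times above T2. In contrast to CYP19A1, HSD17B1 was also above 4 FPKM in BC. The difference between E14G and E11G was -2.07 ± 0.88 and did not pass (limma adjusted p = 0.24). With T1 left out it was -0.66 (adjusted p = 0.14). Against BC, HSD17B1 in E11G then turned from 0.24 (adjusted p = 0.81) to -1.17 (adjusted p = 0.0037), and the difference of -1.83 between E14G and BC went from an adjusted p of 0.11 to 0.000602.

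**Figure D4:**
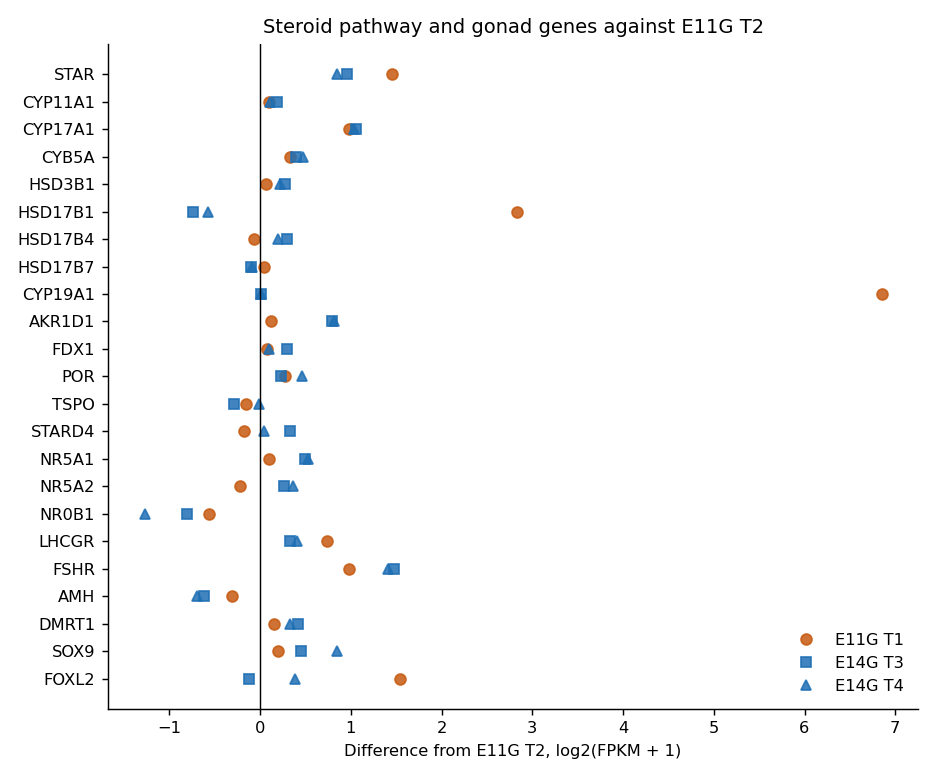
Difference of T1, T3 and T4 from T2 in log2(FPKM + 1) for the 4 members, other genes of steroid synthesis and the genes that regulate them or mark the sex of the gonad. Points for CYP19A1 and HSD17B1 lie far to the right in T1 and near or below 0 in T3 and T4, STAR, CYP17A1 and FSHR are above T2 in T1, T3 and T4, and CYP11A1 and HSD3B1 are close to T2 throughout.

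The genes that control steroid synthesis were read from a list of 28, of which 23 were found and 23 transcripts were tested. The counts are of transcripts and not of genes. CREM had multiple transcripts tested, and INHA and DLX6 had none. Compared with BC, 12 were higher and 6 lower in E11G, and 12 were higher and 5 lower in E14G, with medians of 0.43 and 0.88 beside -0.03 and -0.02 over all transcripts tested. The shares of all transcripts were 38.0% higher and 40.4% lower in E11G, and 37.3% and 39.4% in E14G. NR5A1, the nuclear receptor that switches on most genes of the chain, was at 27.6 FPKM in T1, 25.6 in T2, 36.5 in T3 and 37.3 in T4, against 1.67 and 2.07 in BC. It was higher than in BC by 3.27 in E11G and 3.73 in E14G, whereas the difference between the stages of 0.46 did not pass (limma adjusted p = 0.070). NR2F2, a nuclear receptor of the gonadal interstitium, was higher than in BC by 5.54 and 5.74. CITED2 and CEBPB, transcriptional regulators of many tissues, were lower than in BC, with differences of -4.15 and -3.62 in E11G. From E11G to E14G, 1 rose and 1 fell, beside 1.52% and 2.32% of all transcripts. PRKAR1A, a regulatory subunit of protein kinase A, rose by 0.37 ± 0.06 (SE, limma adjusted p = 0.0472), and LHX9, a homeobox factor of the early gonad, fell by 0.74 ± 0.08 on the log2 scale (adjusted p = 0.0236). With T1 left out neither passed (adjusted p = 0.13 and 0.089).

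The receptors of the pituitary hormones that drive steroid synthesis were low in T2. FSHR, the receptor of follicle-stimulating hormone, was at 9.95 FPKM in T1, 4.57 in T2, 14.5 in T3 and 13.8 in T4, and at 4.15 and 5.51 in BC. T2 thus lay between the BC libraries, while both E14G libraries were above both E11G libraries. The difference between the stages was 0.96 ± 0.33 with both E11G libraries (SE, limma adjusted p = 0.17) and 1.44 with T1 left out (adjusted p = 0.075). LHCGR, the receptor of luteinizing hormone, was at 10.3, 5.80, 7.53 and 7.99 FPKM in T1 to T4 and at 1.92 and 2.55 in BC. NR0B1, a repressor of NR5A1, went the other way in E11G, with 36.8 FPKM in T1, 55.0 in T2, 30.9 in T3 and 22.1 in T4. In BC it was at 35.3 and 37.4 FPKM, close to T1. T2 was the highest of the gonad libraries for NR0B1 and the lowest for STAR, CYP17A1, FSHR and LHCGR, which is a description of 1 library.

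Cholesterol supply was followed in 29 genes, of which 13 were found and 13 transcripts were tested. Here too the counts are of transcripts, since INSIG2 had multiple transcripts tested and HMGCS1 had none. In E11G, 5 were higher than in BC and 4 lower, and in E14G 8 were higher and 4 lower. Those that passed were 9 of 13 in E11G and 12 of 13 in E14G, beside 78.3% and 76.7% of all transcripts tested. FDFT1, which makes squalene, was higher by 1.77 and 1.95 in E11G and E14G. Between the gonad stages none of the 13 passed by limma, while 7 had an unadjusted p under 0.05, beside 23.4% of all transcripts tested. The median difference was 0.34, beside 0.01 over all transcripts tested and 0.06 over RefSeq mRNAs tested alone. By adjusted p, 14.3% of RefSeq mRNAs passed beside 3.84% of all transcripts. Their share at an unadjusted p under 0.05 was not computed, so the 7 are not read as an excess. The same tally was 2 of 10 for the other genes of synthesis and 12 of 23 for the regulators.

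Steroid receptors were sought for 12 genes, of which 10 were found and 8 transcripts were tested. In each gonad stage 6 were higher than in BC and 2 lower, so all 8 tested passed, beside 78.3% of all transcripts in E11G and 76.7% in E14G. ESR1, the receptor that binds the product of aromatase, was at 22.1 FPKM in T1, 21.6 in T2, 10.5 in T3 and 10.7 in T4, and at most 0.0420 in BC. E11G and E14G did not overlap, and T1 and T2 were alike. ESR1 fell by 0.98 ± 0.08 on the log2 scale from E11G to E14G (SE, limma adjusted p = 0.0149), and by 0.96 with T1 left out, where it did not pass (adjusted p = 0.071). PGR, the progesterone receptor, was between 15.9 and 20.3 FPKM in the gonads and at 1.10 and 1.30 in BC.

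Marker lists of the cell types that a gonad dissection could hold were read beside the members, and their part in the members' differences was not tested. Of 10 Leydig cell markers 6 were found, and their summed level was 407 FPKM in T1 and 411 in T2, 463 in T3 and 467 in T4, and 43.4 and 44.4 in BC. CYP11A1 and NR2F2, which were also read in the lists above, make up most of this sum in the gonad libraries. INSL3, a defining marker of these cells, was not matched. GLI1 and PTCH1, targets of hedgehog signalling in Leydig precursors, rose from E11G to E14G by 1.19 (limma adjusted p = 0.0241) and 0.62 (adjusted p = 0.0484), and neither passed with T1 left out (adjusted p = 0.055 and 0.14). Of 8 Sertoli cell markers 5 were found, with a sum of 3870.5 FPKM in T1 and 4762 in T2, and 3145 in T3 and 2998 in T4. AMH makes up most of this sum, and the 3 other markers tested were not lower in E14G, with differences of 0.55 for SOX9, 0.30 for DMRT1 and 0.63 for SOX8 that did not pass (limma adjusted p = 0.19, 0.12 and 0.057). Of 7 markers of pregranulosa cells, the supporting cells of the ovary, 6 were found. Their sums were 42.3, 44.2, 50.3 and 48.4 FPKM in T1 to T4, so the sum was lowest in T1. FOXL2, their defining marker, was at 2.45 FPKM in T1, 0.188 in T2, 0.0869 in T3 and 0.554 in T4, and at 68.3 and 82.6 in BC. T1 was thus the highest gonad library for FOXL2, as for CYP19A1, although at a far lower level. Of the 5 transcripts of this list that were tested, 1 was at least 1.5-fold higher in T1 than in T2 on FPKM + 1. Among all transcripts tested the share was 3.29%.

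The adrenal gland lies next to the gonad and makes steroids as well. Of 8 markers of its cortex 2 were found. CYP21A1, the 21-hydroxylase, was at 3.17 FPKM in T1, 2.61 in T2, 3.17 in T3 and 5.70 in T4, and at 2.96 and 2.90 in BC, and MC2R, the receptor of corticotropin, was at most 0.1002 FPKM in the gonads. Of 10 chromaffin cell markers 3 were found, with a sum of 11.4 FPKM in T1 and between 5.5 and 6.4 in the other gonad libraries. TH, the defining enzyme of catecholamine synthesis, was at 2.68 FPKM in T1, 0.111 in T2, 0.0695 in T3 and 0.0255 in T4. Of 13 markers of the mesonephros, the embryonic kidney, 4 were found, with sums of 28.3, 21.6, 27.6 and 33.5 FPKM in T1 to T4. Of these CALB1, a calcium-binding protein of renal tubules, was at 5.97 FPKM in T1 and between 0.449 and 1.26 in the other gonad libraries. Of 11 germ cell markers 6 were found, with sums of 175, 158, 128 and 116 FPKM in T1 to T4, and 920 and 1026 in BC. DDX4, the germ cell helicase, was at 22.6, 17.6, 26.2 and 22.7 FPKM. From E11G to E14G 2 of the 6 fell and none rose. Among all transcripts tested 2.32% were lower and 1.52% higher, and among RefSeq mRNAs tested alone 5.46% and 8.85%. The same shares apply to the blood markers below. NANOG, a pluripotency factor of early germ cells, differed by -2.66 (limma adjusted p = 0.0115, and 0.046 with T1 left out) and GFRA1, a receptor of undifferentiated spermatogonia in mammals, by -1.41 (adjusted p = 0.0149, and 0.062 with T1 left out). Of 16 blood markers 9 were found, with sums of 1773, 1947, 2274.5 and 2724 FPKM, most of it from HBA1 and HBAD. The 3 of the 8 tested that passed between the stages fell, namely HBZ by 1.98, HBE by 1.78 and HBBR by 1.70 on the log2 scale (limma adjusted p = 0.0149, 0.0192 and 0.018), and none passed with T1 left out. CYP19A1 was accordingly not the only tissue marker that was high in T1 alone among the gonad libraries, since TH and CALB1 were too. In each of their lists, 1 of 3 transcripts tested was at least 1.5-fold higher in T1 than in T2 on FPKM + 1. Among all transcripts tested the share was 3.29%. The chromaffin sum was highest in T1 among the gonad libraries, whereas the mesonephros sum was highest in T4. With 3 transcripts tested in a list, these genes are not read as standing for their lists.

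For each member, the transcripts with the most similar profile over the 6 libraries were taken from 5133 RefSeq mRNAs with a symbol, by the root mean square difference of centred log2(FPKM + 1) values. The 6 libraries include BC, and HSD3B1 and CYP17A1 differed far more between gonads and BC than among the gonad libraries. For these members a near profile therefore mostly means a similar difference from BC. Nearest to HSD3B1 were CYP11A1, at a difference of 0.0530, CCDC80 at 0.0903 and COL6A3 at 0.105. Nearest to CYP17A1 were DMRT1 at 0.307, NR2F2 at 0.312 and HSD3B1 itself at 0.316. Thus of the members only CYP17A1 had another member among its nearest 3. Nearest to STAR were RTN1 at 0.323, PIWIL1 at 0.342 and PI15 at 0.349. None of these RefSeq mRNAs came close to CYP19A1, for which SST7 at 1.58, NTN1 at 1.69 and HSD17B1 at 1.75 were nearest. SST7 was at 19.1 FPKM in T1 and at most 0.751 in the other gonad libraries, and NTN1, a guidance factor of axons, at 7.86 and at most 0.109.

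Small RNAs resistant to periodate, the treatment that enriches piRNAs, had been sequenced from BC, E7PGC, E11G and E14G, in 2 libraries each. In these 8 libraries the authors had called between 1284 and 2070 piRNA clusters. None of the clusters overlapped the span of any of the 4 members by 1 bp, or came within 10 kb of it, in any library. The share of all transcripts without such a cluster was not computed, so this count does not set the members apart from other genes. The nearest cluster in any library was 160.5 kb from HSD3B1, 1281.1 kb from CYP19A1, 2179.7 kb from STAR and 3919.9 kb from CYP17A1.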

How the data were processed

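RNA-seq levels were read from 1 table of FPKM that the authors deposited for 6 libraries. According to the methods and the submitters' processing notes, strand-specific paired-end reads were mapped to galGal5 with TopHat2, assembled with Cufflinks 2.2.1 and scaled across libraries by Cuffnorm. The table holds no counts, so depth is unknown. The sum of FPKM was between 709358.5 (T1) and 1050325.7 (T5). Scaling between libraries can move every value of a library together. The piRNA cluster positions are those that the authors deposited from proTRAC 2.0.5, called in each small RNA library.

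RefSeq identifiers were matched to symbols by a RefSeq gene table of another assembly, used for names only. The 22368 transcripts that reached 1 FPKM in any library were compared by limma 3.58.1 in R 4.3.3 with a mean-variance trend on log2(FPKM + 1), all 6 libraries in the model, and Benjamini-Hochberg adjustment over all of them, with a threshold of 0.05. A fold change on this scale understates the change of low transcripts. Adding 1 also makes a level under 1 FPKM count for little. Single values were tested by exact two-sided permutation of libraries. The fragments behind the low values of CYP19A1 were estimated from the commonest ratio of low values between libraries. Its level in T2 was taken as 1 fragment. The programs were tested on simulated data.

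The members and the gene lists were chosen with earlier results of these data known. Genes named from the lists are among those past the threshold, up to 4 of the largest difference in each direction, with a set of defining genes (AMH, SOX9, DMRT1, FOXL2, CYP11A1, NR5A1, INSL3, CYP21A1, MC2R, TH, DDX4), and 3 nearest transcripts are named for each member. HSD17B1, FSHR, LHCGR, NR0B1, CALB1, CYB5A, SOX8, ASH2L and HNRNPKL were named after their values were seen. Some genes of the lists are not reported here. The alternatives were another pseudocount of 0.1, other filters, scaling by the median ratio, RefSeq mRNAs only, no trend, gonad libraries only and each library left out.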

Additional observations from a re-analysis of the deposited data

How the results depend on the processing

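Of 161 values recomputed under an alternative, 147 were counted as unchanged. These kept their direction and side of the threshold or, for counts, stayed within 1.5 times. The untested difference of CYP19A1 between T1 and T2 kept its direction, but was counted as moved with a pseudocount of 0.1 and with scaling by the median ratio. The count of transcripts that differed between E14G and E11G was 858, and became 408 with no filter on low values, 2 with the 4 gonad libraries alone, and between 29 and 319 with 1 library left out (53 without T1, 216 without T2, 319 without T3 and 29 without T4). With RefSeq mRNAs only, fewer were tested, and 4645 passed between E11G and BC (17522 before) and 4573 between E14G and BC (17163 before). The transcripts at least 4-fold higher in T1 than in T2 went from 86 to 316 with a pseudocount of 0.1, and the difference of CYP19A1 between them from 6.85 to 9.995, or to 6.95 with scaling by the median ratio. Leaving out 1 library, the difference between E14G and E11G ran from -0.55 (without T2) to 0.90 (without T1) for STAR and from -6.84 (without T2) to -3.42 for CYP19A1, and that between E11G and BC from 3.44 to 6.87 (without T2) for CYP19A1. CYP19A1 could not be fitted without T1 or when 2 libraries had to reach 1 FPKM. Scaling by the median ratio moved the median of all transcripts from -0.03 to 0.26 between E11G and BC and from -0.02 to 0.23 between E14G and BC, and the called members stayed called. No paired analysis was possible because the RNA-seq library numbers are not shared between groups, and the small RNA libraries, whose numbers are shared, gave no tested comparison. A planned search of promoters for motifs was not run, as no promoter sequences were used here. With 2 libraries in a group, no permutation test can pass 0.05.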

Other observations

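CYP19A1 stood at rank 3 by margin among 46 transcripts that were at least 4-fold higher in T1 than in each of T2, T3 and T4 on FPKM + 1, a class with 22 transcripts when read for T2 in place of T1. Of the 46, 4 lay on chromosome W, beside 43 of the 22368 transcripts tested that lay on it or its scaffolds. A RefSeq symbol was found for 14 of the 46. Rank 1 was held by a transcript without a symbol, at 117.02 FPKM in T1, and rank 2 by MIR3528, at 116.99 FPKM. Both were listed at 0 in the other 5 libraries. FPKM is scaled by transcript length, and the fragments behind these values were not counted. These levels are therefore not set beside that of CYP19A1. The share of the 46 that rests on few fragments was not tested.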
